A study of Homo sapiens with 18 samples.

Results

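MYC binding was examined at 9 promoters that serve 10 nuclear genes for mitochondrial proteins, in MCF10A breast epithelial cells with and without a hairpin against the histone methyltransferase G9a. The genes are HSPD1, HSPE1, HSPA9, PHB, PHB2, TFAM, TOMM20, C1QBP, TRAP1 and TUFM, and HSPD1 and HSPE1 share 1 promoter. They were chosen by name, and a promoter was taken as bound in a library when a listed peak overlapped the 2 kb on either side of its transcription start in hg19. Each of the 9 windows held 1 merged MYC region, so these are 9 of the 43222 regions that the lists gave when peaks overlapping by at least 1 bp were merged. All 9 are among the 14209 regions called in every control library.

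All groups were MCF10A, an immortalised non-tumour line, carrying ectopic MYC from pBABE-hygro-MYC and the PI3K mutant from pMN-IRES-GFP-PI3KH1047R, so the controls bear both oncogenes too. Cells of 2 groups expressed a tetON hairpin against G9a, labelled pLKO-tetON-puro-shG9a 1 and 4 (shG9a_1 and shG9a_4 below), and the controls expressed pLKO-tetON-puro-shSCR. Every group received doxycycline at 2 µg/mL over 72 h, and each immunoprecipitation drew on 10000000 cells and the MYC antibody N262. Each hairpin has 3 MYC libraries, described as biological replicates, and 3 inputs that were not used here. MYC in these cells comes from a transgene as well as from the endogenous gene, and peak lists hold neither the level of G9a nor expression markers of the cell line, so neither was checked.

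Mitochondria import nearly all of their proteins from the cytosol. TOMM20 is a receptor of the outer membrane translocase, HSPA9 (mortalin) is the matrix HSP70 that pulls preproteins inward, and HSPD1 and HSPE1 (HSP60 and HSP10) form the chaperonin in which many of them fold. TRAP1 is the mitochondrial HSP90, PHB and PHB2 build the prohibitin scaffold of the inner membrane, and TFAM, TUFM and C1QBP act on mitochondrial DNA, on translation elongation and on matrix RNA and ribosomes. MYC pairs with MAX and prefers the DNA hexamer CACGTG, the canonical E-box, and genes for mitochondrial biogenesis are among its known targets.

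The promoter sequences of all 10 genes were found in RefSeq (GRCh38.p14), as windows of 300 bases from 250 before to 50 after each annotated start. A CACGTG stood in 4 of their 12 windows, against 2548 of 35116 RefSeq promoter windows (7.26%). These were windows of HSPD1, HSPE1, HSPA9 and TOMM20, which is 3 of the 9 promoters. The HSPD1 and HSPE1 windows hold the same site, since the first HSPD1 window and the HSPE1 window overlap by 204 bases. The looser hexamer CANNTG, which includes CACGTG, stood in 7 of the 12 windows (7 of 10 genes) and in 68.7% of all windows. Both motifs read the same on either strand in this search. Shown here are the 3 promoters with the canonical site and the 2 strongest of those without it in the peak lists, C1QBP and TRAP1, with every CANNTG in capitals. The first is the 104 bases between the starts of HSPD1 and HSPE1 (chr2:197500275-197500378, plus strand), and the rest are the 250 bases before the start of HSPA9 (chr5:138575402-138575651), TOMM20 (chr1:235128838-235129087), C1QBP (chr17:5439156-5439405) and TRAP1 (chr16:3717525-3717774), all on the minus strand of GRCh38.p14.
HSPD1/HSPE1: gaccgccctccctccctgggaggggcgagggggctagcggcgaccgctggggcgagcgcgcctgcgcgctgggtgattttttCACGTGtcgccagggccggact
HSPA9: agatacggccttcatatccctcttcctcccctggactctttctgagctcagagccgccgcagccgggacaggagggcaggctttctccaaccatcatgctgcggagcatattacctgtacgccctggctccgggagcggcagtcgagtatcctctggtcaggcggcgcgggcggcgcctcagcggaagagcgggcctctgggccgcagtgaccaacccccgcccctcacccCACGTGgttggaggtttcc
TOMM20: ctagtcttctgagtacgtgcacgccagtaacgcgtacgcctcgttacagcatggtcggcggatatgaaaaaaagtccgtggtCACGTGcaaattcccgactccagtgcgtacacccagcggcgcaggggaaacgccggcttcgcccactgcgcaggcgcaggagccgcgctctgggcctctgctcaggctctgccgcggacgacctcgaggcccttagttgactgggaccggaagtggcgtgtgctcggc
C1QBP: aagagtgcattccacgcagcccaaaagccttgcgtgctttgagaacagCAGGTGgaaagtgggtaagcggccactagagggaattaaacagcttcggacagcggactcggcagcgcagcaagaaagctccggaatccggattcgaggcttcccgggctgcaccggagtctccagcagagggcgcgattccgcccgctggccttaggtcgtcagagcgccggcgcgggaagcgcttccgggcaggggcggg
TRAP1: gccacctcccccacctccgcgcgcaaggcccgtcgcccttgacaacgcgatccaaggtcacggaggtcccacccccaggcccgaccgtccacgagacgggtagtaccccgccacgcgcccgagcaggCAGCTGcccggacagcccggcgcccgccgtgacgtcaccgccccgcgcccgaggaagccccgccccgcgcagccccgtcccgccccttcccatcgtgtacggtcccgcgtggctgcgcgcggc

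In these sequences the CACGTG lay at -22 to -17 from the HSPE1 start, -19 to -14 from the HSPA9 start and -168 to -163 from the TOMM20 start, counting the base before a start as -1. C1QBP held a CAGGTG at -202 to -197 and TRAP1 a CAGCTG at -123 to -118. PHB held a CATCTG and a CATGTG, and no CANNTG was found in the windows of PHB2, TFAM or TUFM. A match of letters is a description of the window and not a mapped site, and no position was carried from GRCh38 to the hg19 peaks. CpG counts in the windows ran from 14 at PHB, which is the median of all RefSeq windows, to 45 at TRAP1.

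The libraries differed in ways that touch every value that follows. The shG9a lists held 113, 11462 and 13068 peaks with shG9a_1 and 11168, 17454 and 12922 with shG9a_4, and the shSCR lists held 29827, 34738 and 20118. Replicate 1 of shG9a_1, with 113 peaks, called 0.767% of the 14209 regions and 7.32% of their strongest decile, so it is kept in counts of calls and left out of heights and ranks. Lowest backgrounds, which grow with sequencing depth, were 0.361, 0.370 and 0.482 fragments in shG9a_1, 0.796, 0.477 and 1.03 in shG9a_4, and 0.448, 0.488 and 0.408 in shSCR. The read depth itself is unknown.

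All 9 promoters carried a MYC peak in each of the 3 shG9a_4 libraries, in shG9a_1 replicate 3, and in each of the 3 shSCR libraries. In shG9a_1 replicate 2 the promoters of HSPD1/HSPE1, HSPA9, PHB, PHB2, TOMM20, C1QBP, TRAP1 and TUFM were called, and that of TFAM was not. None of the 9 was called in shG9a_1 replicate 1. The calls came to 44 of 54 in the shG9a libraries and 27 of 27 in the shSCR libraries. Of the 14209 regions, 57.7 and 64.5% were called in shG9a_1 replicates 2 and 3. In shG9a_4 replicates 1 to 3 it was 58.3, 77.3 and 66.3%, and in shSCR all were called by definition. By the rule of a call in all 3 shSCR libraries and at least 5 of the 6 shG9a libraries, 8 of 9 promoters were kept, where 36.9% of the 14209 regions were. TFAM, which encodes a factor that packages mitochondrial DNA and acts in its transcription, was called in 4 of 6 shG9a libraries and was the exception. With 1 shG9a library left out, the rule asked for a call in at least 4 of the remaining 5. TFAM met that rule without shG9a_1 replicate 1 or without replicate 2. With a fold of at least 5 required, PHB2 dropped out too, which left 7 of 9. The share of all regions kept was not computed under these changed rules.

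The share kept follows the strength of a region, and these promoters are mostly strong. Ranked by mean within-list percentile over the shSCR lists, HSPD1/HSPE1, HSPA9, TOMM20, C1QBP and TRAP1 stood in decile 10, the strongest, of the 14209 regions, where 99.2% were kept. PHB stood in decile 9 (90.8% kept), PHB2 in decile 8 (67.8%), and TFAM and TUFM in decile 7 (48.3%). The strength percentiles were 98.9 for TRAP1, 98.2 for HSPD1/HSPE1, 98.2 for C1QBP, 97.8 for HSPA9, 94.3 for TOMM20, 89.4 for PHB, 78.6 for PHB2, 67.7 for TFAM and 64.5 for TUFM. A count of 8 of 9 kept is therefore set beside these shares and not beside the overall one alone. This ranking uses the shSCR lists only.

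The chaperone promoters held some of the highest peaks of the set. Fold enrichment is the authors' ratio of fragments piled up at a summit over those its surroundings predict, and is quoted in replicate order, for replicates 2 and 3 of shG9a_1 and replicates 1 to 3 of the other groups. At the HSPD1/HSPE1 promoter (hg19 start 2:198364771, region chr2:198363685-198365467) the fold of the best peak was 19.2 and 13.7 in shG9a_1, 11.8, 21.0 and 15.7 in shG9a_4, and 23.1, 30.9 and 27.3 in shSCR. At HSPA9 (5:137911133, region chr5:137910647-137911723) it was 16.6 and 16.1 in shG9a_1, 14.3, 23.1 and 19.5 in shG9a_4, and 16.8, 29.1 and 26.7 in shSCR. At TRAP1 (16:3767598, region chr16:3766704-3767962) it was 10.8 and 23.7 in shG9a_1, 12.8, 30.1 and 23.0 in shG9a_4, and 29.9, 38.2 and 36.8 in shSCR. At HSPD1/HSPE1 and HSPA9 the best peak ranked above 94% of its own list in all 8 libraries. The TRAP1 peak stood above 99% of each shSCR list and above 90.8 to 98.9% of the shG9a lists.

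By q-value rank, the prohibitin promoters stood below the 3 chaperone promoters in all 8 lists, but by fold PHB was above HSPA9 in shSCR replicate 1 (20.2 against 16.8). At PHB (17:47492246, region chr17:47492027-47492831) the fold was 9.39 and 12.5 in shG9a_1, 7.66, 11.4 and 9.26 in shG9a_4, and 20.2, 14.3 and 17.3 in shSCR. At PHB2 (12:7079916, region chr12:7079363-7080663) it was 6.20 and 8.15 in shG9a_1, 7.85, 11.9 and 4.86 in shG9a_4, and 11.3, 12.7 and 14.3 in shSCR. PHB ranked above PHB2 in 7 of the 8 lists. The exception was shG9a_4 replicate 1, where the PHB peak stood at percentile 67.2 and the PHB2 peak at 69.9. The PHB2 window also holds the start of EMG1 on the opposite strand, 160 and 249 bases from the 2 annotated PHB2 starts, so its peak cannot be given to one gene of the pair.

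Of the remaining promoters, that of the import receptor gene and that of C1QBP were strong. Those of TFAM and TUFM were the weakest of the 9 by shSCR rank, though at strength percentiles of 67.7 and 64.5. At TOMM20 (1:235292256, region chr1:235291522-235292534) the fold was 9.66 and 10.2 in shG9a_1, 12.7, 16.6 and 16.1 in shG9a_4, and 16.8, 26.7 and 13.7 in shSCR. At C1QBP (17:5342471, region chr17:5341925-5342729) it was 26.7 and 17.6 in shG9a_1, 25.1, 29.2 and 30.0 in shG9a_4, and 23.4, 37.7 and 27.1 in shSCR. C1QBP stood at percentile 96.7 or above in all 8 lists. TFAM (10:60144903, region chr10:60145038-60145406) had a fold of 7.59 in shG9a_1 replicate 3, 11.6, 11.0 and 4.63 in shG9a_4, and 8.76, 10.0 and 10.7 in shSCR. TUFM (16:28857729, region chr16:28857088-28857936) had 7.17 and 6.34 in shG9a_1, 6.16, 9.73 and 6.17 in shG9a_4, and 11.0, 9.51 and 8.93 in shSCR. The TFAM peak moved most within the lists, with percentiles from 19.7 in shG9a_4 replicate 3 to 88.4 in shG9a_4 replicate 1. SH2B1 starts 258 bases from TUFM on the opposite strand, and that peak cannot be assigned to one gene either.

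The order of the 9 promoters within a list does not depend on how long the list is. C1QBP came first in 5 of 8 lists and TRAP1 in the other 3. In shG9a libraries C1QBP took places 1 and 3 with shG9a_1 and place 1 in all 3 shG9a_4 lists, and in shSCR it took places 3, 1 and 3. TRAP1 took places 4 and 1 with shG9a_1, 5, 3 and 3 with shG9a_4, and 1, 2 and 1 in shSCR. HSPA9 and HSPD1/HSPE1 were among the first 4 in 7 of 8 lists each. PHB2 and TUFM were among the last 3 in all 8 lists, and TFAM in 6 of the 7 that called it. The 4 leading promoters swapped places between replicates of 1 group, so their order among themselves does not go beyond that spread. Percentiles from lists of different lengths are not read as a change.

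Summits sat at reproducible places around each start, with distances given in the direction of transcription and negative upstream. C1QBP had a single summit, 100 to 145 bp downstream of the start in all 8 libraries. PHB had its main summit at -258 to -215 bp in all 8, and TFAM had its own 220 to 352 bp downstream in all 7 libraries that called it. TOMM20 peaked 398 to 515 bp downstream in all 8 libraries, with a second summit near the start, at -42 bp in shG9a_4 replicate 1 and at 1 bp in shG9a_1 replicate 2. TRAP1 peaked between -91 and 59 bp in all 8. The main TOMM20 summit and the TFAM and C1QBP summits therefore lie beyond the 50 bases after the start that the RefSeq windows cover, if the starts of both annotations are the same. On the same condition the main HSPA9 summit also lies beyond them, at 54 to 108 bp, except in shSCR replicate 3 (28 bp).

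Several promoters held a pair of summits. At HSPA9 the main summit lay 28 to 108 bp downstream of the start in 8 libraries, and a second peak lay at -451 to -419 bp in 6. That second peak was separate in all 5 shG9a libraries and in shSCR replicate 1, and in shSCR replicates 2 and 3 a single peak of 1044 and 1001 bp spanned both places. At HSPD1/HSPE1, counted toward HSPE1, the main summit lay at -128 to -79 bp from the stated start in 8 libraries and another at 300 to 498 bp in 6. HSPD1 is transcribed the other way, so a negative sign there does not mean upstream of HSPD1. Which gene's start the stated coordinate marks was not determined, and their GRCh38 starts lie 105 or 539 bp apart. PHB2 had summits at -229 to -153 bp in 7 libraries and at 67 to 176 bp in 3. TUFM had them from -34 to 90 bp in 6 libraries and at 369 to 529 bp in 5, and neither place was the higher one throughout. Across all windows the shG9a libraries listed 64 peaks for 44 calls, and the shSCR libraries listed 31 peaks for 27 calls. The length covered by peaks was on average shorter in the shG9a libraries at all 9 promoters. It was 1361 ± 248 bp with shG9a (SD, n = 5) and 1605 ± 55.0 bp with shSCR (SD, n = 3) at HSPD1/HSPE1, the broadest, and 238 ± 35.1 bp with shG9a (n = 4) and 308 ± 58.6 bp with shSCR (n = 3) at TFAM, the narrowest. These lengths and peak counts were not tested and were not computed over all regions, so they are not read as a trait of these promoters. The median width of all peaks in a list was 225 and 238 bp in shG9a_1, 224, 249 and 223 bp in shG9a_4, and 240, 275 and 252 bp in shSCR.

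**Figure D1:**
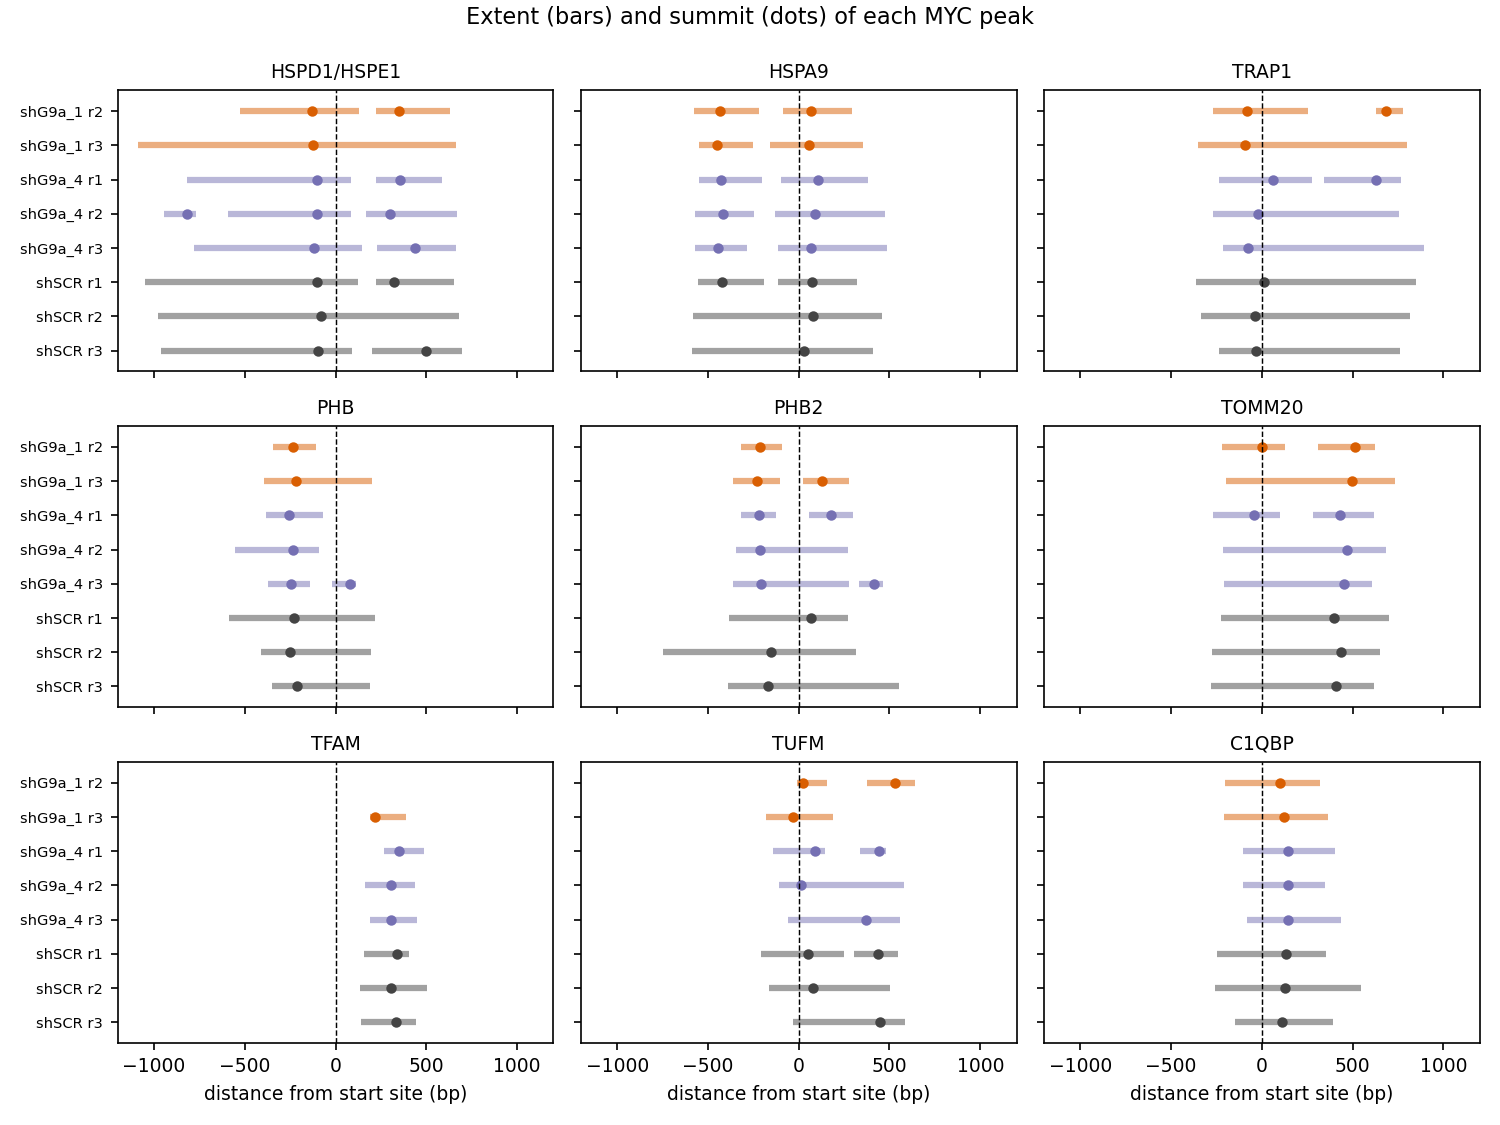
Extent (bars) and summit (dots) of every listed MYC peak at the 9 promoters, in bp from the start in the direction of transcription (toward HSPE1 for HSPD1/HSPE1), with 1 row per library and the 5 shG9a libraries above the 3 shSCR libraries. Summits recur at the same places in both groups, such as 100 to 145 bp downstream at C1QBP, and the HSPA9 peak is split in 6 of 8 libraries.

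Peak height was then compared between the groups, each library being scaled to its own background. The fold and p-value of a peak fix the whole number of fragments piled up at its summit, and height is that number divided by the lowest background of its library. The counts behind these heights are small. They run from 9 to 66 fragments in the shG9a libraries and from 14 to 86 in the shSCR libraries, and the 9 fragments at PHB2 in shG9a_1 replicate 2 have an exact Poisson 95% interval of 4.12 to 17.1, which covers counting error only. Of the 8 promoters called in all 8 libraries, 5 had every shG9a height below every shSCR height, where 56.5% of the 5245 regions called in those libraries did.

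Heights at the chaperone promoters were lower with shG9a at HSPD1/HSPE1 and TRAP1. HSPD1/HSPE1 had heights of 81.0 and 95.4 in shG9a_1, 46.5, 94.4 and 48.5 in shG9a_4, and 132, 156 and 113 in shSCR. Every shG9a value was below every shSCR value there, and the log2 difference was -0.87 ± 0.33 (SE; limma, Benjamini-Hochberg adjusted p = 0.0165). TRAP1 had 62.1 and 76.7 in shG9a_1, 32.7, 92.3 and 49.5 in shG9a_4, and 107, 149 and 128 in shSCR. The groups did not overlap at TRAP1 either, and its log2 difference of -1.07 ± 0.33 (SE; limma adjusted p = 0.00609) was the lowest of the 8 promoters fitted. HSPA9 had 111 and 112 in shG9a_1, 50.3, 124 and 64.0 in shG9a_4, and 107, 176 and 152 in shSCR. At HSPA9 the groups overlapped, and the log2 difference of -0.65 ± 0.33 (SE) did not pass (limma adjusted p = 0.0576).

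Both prohibitin promoters were lower with shG9a. PHB had heights of 45.9 and 39.4 in shG9a_1, 18.8, 50.4 and 28.1 in shG9a_4, and 75.9, 61.4 and 63.8 in shSCR. PHB2 had 24.3 and 35.3 in shG9a_1, 20.1, 44.1 and 21.3 in shG9a_4, and 46.9, 45.1 and 51.5 in shSCR. Neither promoter had an shG9a value inside the shSCR range, although 44.1 and 45.1 at PHB2 are close. The log2 differences were -0.91 ± 0.33 at PHB and -0.77 ± 0.33 at PHB2 (SE; limma adjusted p = 0.0136 and 0.0282).

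Heights at the import receptor gene and at TUFM also passed, and C1QBP did not. TOMM20 had 62.1 and 70.5 in shG9a_1, 59.1, 88.1 and 63.0 in shG9a_4, and 107, 162 and 85.9 in shSCR, with a log2 difference of -0.76 ± 0.33 (SE; limma adjusted p = 0.0310). TUFM, the gene of the mitochondrial elongation factor Tu, had 29.7 and 27.0 in shG9a_1, 15.1, 29.4 and 18.4 in shG9a_4, and 46.9, 36.9 and 34.3 in shSCR, with a difference of -0.71 ± 0.33 (SE; limma adjusted p = 0.0413). The groups overlapped at TOMM20 through the 88.1 of shG9a_4 replicate 2, and not at TUFM. C1QBP had 113 and 78.8 in shG9a_1, 65.3, 122 and 61.1 in shG9a_4, and 103, 166 and 123 in shSCR. The groups overlapped at C1QBP, where the difference was -0.57 ± 0.33 (SE; limma adjusted p = 0.0929). TFAM was not in this fit, which needs a call in all 8 libraries. Its heights were 22.8 in shG9a_1 replicate 3, 27.6, 33.6 and 13.6 in shG9a_4, and 38.0, 49.1 and 41.7 in shSCR, without overlap. In a fit of 11879 regions called at least once per group, an alternative chosen after the data were seen, TFAM differed by -0.89 ± 0.36 on the log2 scale (SE, 7 libraries; limma adjusted p = 0.0484). In that fit 4 of 9 promoters passed, against 39.1% of regions, and PHB2, TOMM20 and TUFM no longer did (limma adjusted p = 0.0508, 0.0505 and 0.0621).

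**Figure D2:**
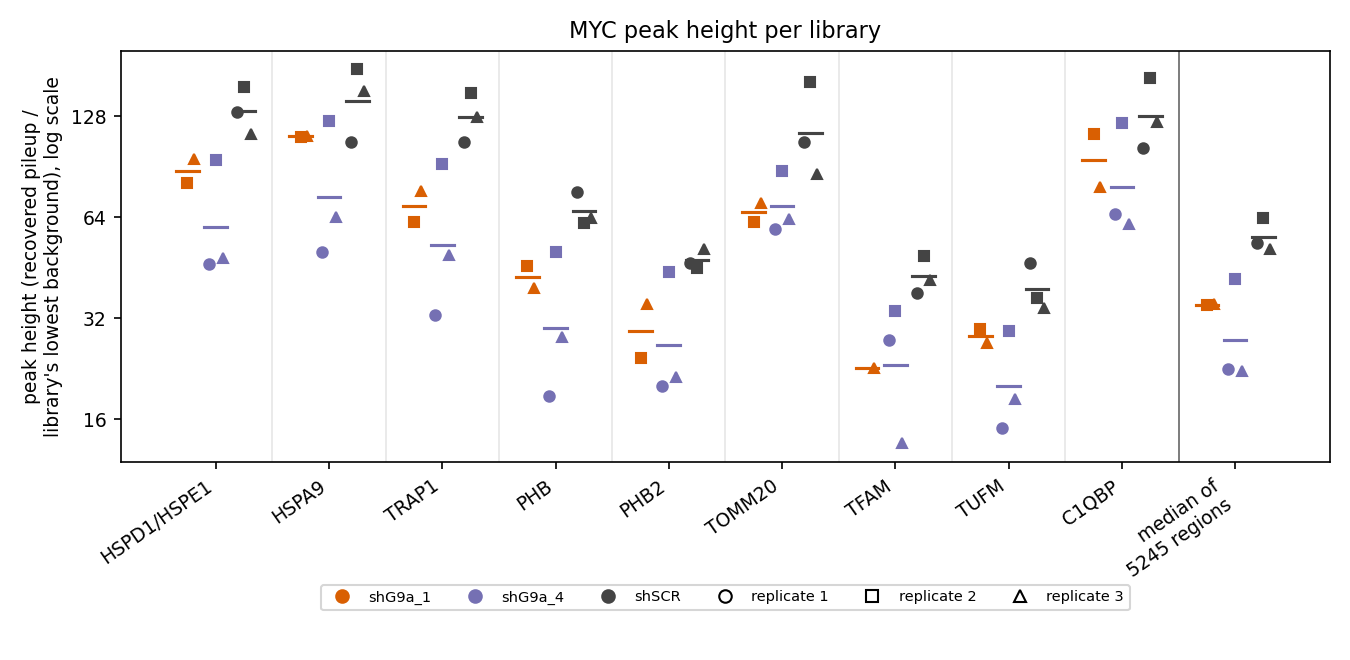
Height of the best MYC peak at each promoter (recovered pileup over the library's lowest background, log axis), with 1 symbol per library, bars at the geometric mean and shG9a_1, shG9a_4 and shSCR from left to right; the last column gives the median over 5245 regions. All shG9a symbols lie below all shSCR symbols at 5 of the 8 promoters called in 8 libraries (56.5% of all 5245 regions) and at TFAM, the groups overlap at HSPA9, TOMM20 and C1QBP, and shG9a_4 replicates 1 and 3 have the lowest medians.

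In all, 6 of the 8 fitted promoters were lower with shG9a and none was higher, against 76.8% of the 5245 regions in the same fit lower. The median log2 difference was -0.77 over the 8 promoters and -0.85 over all 5245 regions. The share at the promoters is thus near that of all regions. Median height over those regions was 35.1 and 35.3 in shG9a_1, 22.6, 42.0 and 22.3 in shG9a_4, and 53.6, 63.5 and 51.5 in shSCR. That shift of whole libraries had an exact two-sided permutation p = 0.0357, the smallest that 56 splits of 5 against 3 libraries allow. limma estimated 1 common spread for heights of all regions (infinite prior degrees of freedom), which is why the SEs are equal, and its p-values take the regions as separate although each library shifts them together.

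By hairpin, 6 of 8 promoters were lower with shG9a_4, where 86.0% of regions were, and TOMM20 and C1QBP missed with limma adjusted p = 0.0513 and 0.0592. With shG9a_1, 0 of 8 passed in limma (0.419% of regions), all 8 differences were negative, as were 98.5% of all regions, and TRAP1 alone had an unadjusted p under 0.05, as 33.0% of regions had. Between the hairpins, shG9a_1 minus shG9a_4, 0 of 8 promoters and 0% of regions passed in limma, and 0 of 8 had an unadjusted p under 0.05. These differences ran from -0.06 at TOMM20 to 0.60 at HSPA9, each ± 0.40 (SE). Differences of the size of this SE and larger ones can be missed here.

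The counts rest on few libraries. In the pooled comparison, leaving out shSCR replicate 2 left 0 of 8 promoters and 7.62% of all regions past the threshold, and leaving out shSCR replicate 1 left 1 promoter and 45.8% of regions. It was 2 promoters and 51.4% of regions on removing shG9a_4 replicate 1, and 3 promoters and 54.8% on removing its replicate 3. Removal of shG9a_1 replicate 2 or 3 gave 3 promoters each, with 41.5% and 45.0% of regions, and removal of shSCR replicate 3 gave 4 promoters and 60.3%. Taking out shG9a_4 replicate 2 gave 8 promoters and 97.3% of regions. For the shG9a_4 hairpin alone the count was 1 without its replicate 1 and 3 without its replicate 3, beside 41.5% and 41.4% of regions. Without shG9a_4 replicate 2, the shG9a_1 count was 4 (54.2% of regions), and between the hairpins 5 promoters were higher with shG9a_1 (36.2% of regions). Over 15 alternative settings, these single libraries included, the pooled difference passed in 13 at TRAP1, 10 at HSPD1/HSPE1, 9 at PHB, 6 at PHB2, 5 at TOMM20, 3 at TUFM and 2 each at HSPA9 and C1QBP. All 8 pooled differences stayed negative, as did those of 92.2 to 99.9% of regions in these settings. The libraries of highest background, shG9a_4 replicates 1 and 3, had the lowest median heights. Without these 2, the pooled difference ran from -0.25 at C1QBP to -0.67 at TRAP1, only TRAP1 passed (limma adjusted p = 0.0476), and 32.3% of regions were lower. The part of background or depth in the result was not tested.

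Set against the median region of the same library, no promoter passed the test. The relative log2 difference, shG9a minus shSCR, was -0.23 ± 0.20 at TRAP1, -0.06 ± 0.20 at PHB, -0.03 ± 0.18 at HSPD1/HSPE1, 0.07 ± 0.20 at PHB2, 0.09 ± 0.20 at TOMM20, 0.13 ± 0.19 at TUFM, 0.19 ± 0.20 at HSPA9 and 0.27 ± 0.19 at C1QBP (SE). In limma 0 of 8 passed in either direction (adjusted p from 0.709 to 0.982), 0 had an unadjusted p under 0.05, and 0.0191% of all regions were lower and 0.0763% higher. With SEs near 0.2, relative changes of that size and larger ones can be missed here, so the lack of a pass does not exclude them. The 0.27 at C1QBP, the largest of these differences, had a limma adjusted p = 0.709.

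**Figure D3:**
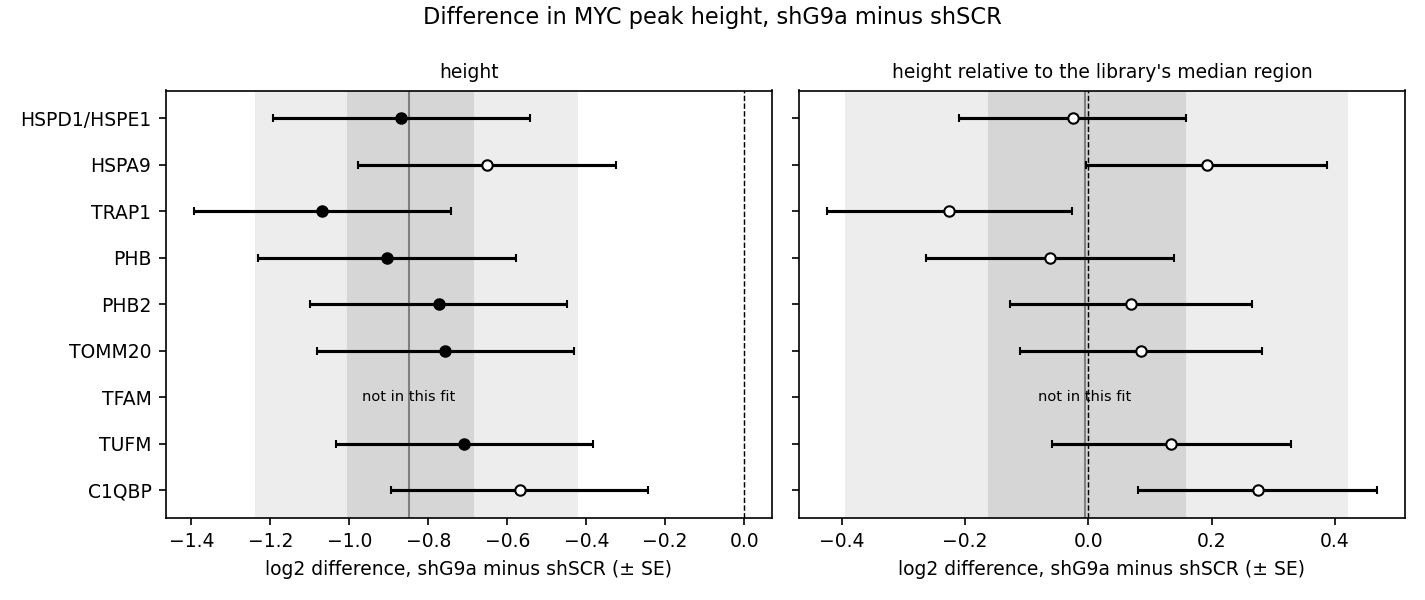
Log2 difference in MYC peak height, shG9a minus shSCR, per promoter with its SE from limma, for height (left) and height relative to the library's median region (right). Filled points passed an adjusted p of 0.05, the shaded bands hold the middle 50% and 90% of 5245 regions with their median as a line, and the promoters lie within the range of these regions, from -1.07 at TRAP1 to -0.57 at C1QBP on the left.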

How the data were processed

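MYC ChIP-seq peak lists of 9 libraries (3 per hairpin) were used. STAR 2.5.2a, SAMtools 1.3, Picard 2.7.1, MACS2 2.1.0 and GRCh37/hg19 are named in the submitters' processing notes, and each deposited list holds 1 library. The deposited columns give a display score, the fold (a ratio of pileup to local background), −log10 p-values and −log10 q-values, all made by the authors, and the offset of the summit. Listed peaks reached a q-value of 0.05, and the 150870 of 151062 peaks that lie on chromosomes 1 to 22 and X were used.

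Peaks were merged across libraries at an overlap of 1 bp. Ranks follow the deposited −log10 q-value within a list, with the highest as rank 1. Pileups were recovered as whole numbers from fold and p-value (all peaks, to within 0.001 of −log10 p) and divided by the lowest background shared by at least 1% of a library's peaks. Log2 heights of 5245 regions called in 8 libraries were fitted with limma 3.58.1 (R 4.3.3) over 3 groups, without shG9a_1 replicate 1, and p-values were Benjamini-Hochberg adjusted over all regions. Relative heights subtract the library's median. Only the limma fit of relative heights was checked on simulated data, with noise drawn separately for each region. The p-values of the height fit were not checked in that way. Python 3.11.15, numpy 2.4.6, pandas 2.3.3, scipy 1.17.1 and matplotlib 3.10.9 were used for the rest.

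All 10 genes are named because membership was set by gene name. The members and lists were chosen with earlier results of these data known. Summits within 100 bp were grouped, a distance chosen after the values were seen. Alternatives were windows of 1 and 5 kb, stricter peaks, equal peak numbers, other scalings and filters, and leaving out each library. The fits on regions called at least once per group and on 6 libraries of like background were added after the data were seen. Inputs were not used here, and a wider pathway list was not analysed here. The p-values of the height fit rest on 1 spread between libraries shared by all regions, and not on the spread at each promoter. Those of relative height mix a shared spread with that of the promoter (23.2 prior and 5 residual degrees of freedom).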

Additional observations from a re-analysis of the deposited data

Results flagged for a closer look

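At TOMM20, the gene of an outer membrane import receptor, the 2 hairpins lay on opposite sides of the control mean once height was set against the median region of each library. The mean deviation from the shSCR mean was -0.12 on the log2 scale with shG9a_1, where both libraries were below it (-0.21 and -0.03), and 0.29 with shG9a_4, where all 3 were above it (0.36, 0.04 and 0.47). The shSCR libraries themselves deviated by -0.03, 0.32 and -0.29, so they spread about as widely. The difference between the hairpins, shG9a_1 minus shG9a_4, was -0.41 ± 0.24 (SE) and did not pass (limma adjusted p = 0.829).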

How the results depend on the processing

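The number of promoters kept was 7 with a fold of at least 5, and 8 or 9 otherwise. It was 9 only where an shG9a_1 library was left out, and the rule then asked for 4 of the remaining 5 shG9a libraries. The share of all regions kept was computed for the main rule only. The count of 6 lower promoters in the pooled height comparison became 1 with 6 libraries of like lowest background (32.3% of regions), 0 with pileup over local background (3.05%), 4 with the deposited fold (28.8%), 4 of 9 with regions called at least once per group (39.1%) and 5 with the eBayes trend (72.0%). With shG9a_1 alone, the count of 0 became 1 with the replicate block (28.6% of regions) and 1 with the deposited fold (11.3%). With shG9a_4 alone, the count of 6 became 0 with the deposited fold (11.6% of regions) and 0 with local background (5.45%). The fit on libraries of like background holds 1 shG9a_4 library, so its counts by hairpin are not given. There the promoter differences ran from -0.88 to -0.35 with shG9a_1 and from -0.49 to -0.07 with shG9a_4. Their median was -0.62 with shG9a_1 and -0.39 with shG9a_4, where the main fit gave -0.62 and -0.95. Over all regions the medians were -0.64 and -0.42, against -0.66 and -1.02 in the main fit. The larger difference was thus with shG9a_4 in the main fit and with shG9a_1 here. Leaving out 1 library gave 0 to 8 promoters in the pooled comparison, 0 to 4 with shG9a_1, 1 to 8 with shG9a_4 and 0 to 5 between the hairpins (5 without shG9a_4 replicate 2). All 8 differences were negative in the pooled comparison under all 15 alternatives, TRAP1 passed in 13 of them and TUFM in 3, and no relative difference passed. Over all regions, 92.2 to 99.9% of the pooled differences were negative under the same alternatives. Causes were not tested. Over all regions, 4027 lower regions became 160 with local background, 2086 called with like background, 1512 with the deposited fold, and 400 without shSCR replicate 2. Across regions, libraries of the same replicate number correlated at -0.02 to 0.15 in their deviations, and those of different numbers at -0.14 to 0.08. A shift common to all regions of a library drops out of these correlations, so they cannot tell whether the numbers pair the samples. The replicate block gave 8 of 8 promoters lower, beside 88.4% of regions. Leaving out an shG9a_1 library leaves 1 in that group, assumed to vary like the others.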
